A study of Mus musculus with 8 samples.

Results

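The miR-379 to miR-410 cluster is a run of microRNA hairpins in the imprinted Dlk1-Dio3 domain on mouse chromosome 12. Its mature miRNAs were picked by name, as every listed 5p or 3p arm that carries the miRNA number of a cluster hairpin, which gave 67 of the 1396 miRNAs in the deposited table. The measurements came from small RNA of spinal cord, left side, taken from mice of the C57BL/6 strain. For 4 libraries (bone cancer pain 1 to 4), cells of LL/2, a mouse lung cancer line, had been transplanted into the marrow cavity of the left femur, and for the other 4 (sham 1 to 4) the same cavity had received saline. Both groups share the strain and tissue, no genetic change is named in the labels, and age and sex are not given in them. Nothing in the labels says that each library is a separate animal, so a p-value here reflects only how far these libraries scatter, and that scatter may be technical.

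Genes of the Dlk1-Dio3 domain are expressed from 1 parental copy, and the miRNAs of the cluster come from the maternally inherited chromosome. They are cut from long noncoding transcripts, each hairpin giving a 5p and a 3p arm, and they are known above all from brain, where several of them act on local translation in dendrites. A miRNA finds its target messenger RNAs mainly through its seed, bases 2 to 8 counted from the 5′ end.

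The 8 most abundant members of the cluster in this tissue are shown first, because most of the cluster's reads belong to them. Sequences are written 5′ to 3′ from RefSeq (GRCm38.p6), which held 64 of the 67 members, and the seed is in capitals.
miR-300-3p: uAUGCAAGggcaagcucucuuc
miR-381-3p: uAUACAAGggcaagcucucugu
miR-379-5p: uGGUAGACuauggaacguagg
miR-411-5p: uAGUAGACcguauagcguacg
miR-541-5p: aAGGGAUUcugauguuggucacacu
miR-382-3p: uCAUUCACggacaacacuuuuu
miR-495-3p: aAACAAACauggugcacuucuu
miR-329-5p: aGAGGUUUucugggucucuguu
The first base was U in 5 of these 8, in 27 of all 64, and A, G or C in 24, 10 and 3. miR-300-3p and miR-381-3p differ at 3 of 22 bases, and their hairpins are neighbours.

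The seeds of the 64 members were mostly their own: 60 distinct seeds were found and 4 of them were held by a pair of members. The pairs are shown to let the shared seed be compared with the rest of each sequence.
miR-379-5p: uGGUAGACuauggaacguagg
miR-1193-5p: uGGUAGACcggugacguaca
miR-379-3p: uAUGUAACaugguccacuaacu
miR-411-3p: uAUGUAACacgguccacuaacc
miR-299a-3p: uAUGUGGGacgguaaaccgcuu
miR-299b-3p: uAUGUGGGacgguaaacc
miR-376b-5p: gUGGAUAUuccuucuaugguua
miR-376c-5p: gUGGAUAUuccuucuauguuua
The whole of miR-299b-3p, 18 bases, is contained in miR-299a-3p, so reads of one that end early cannot be told from the other. miR-376b-5p and miR-376c-5p differ at 1 of 22 bases, and miR-379-3p and miR-411-3p at 2 of 22. Among miRNAs outside the cluster, miR-344d-3p and miR-344e-3p have the seed of miR-410-3p (AUAUAAC), and miR-362-3p has that of miR-329-3p (ACACACC). miR-12200-5p, at 0.04 CPM, has the seed of miR-495-3p. For low members the outside miRNA was the more abundant: miR-1983 averaged 32.3 CPM beside 2.6 of miR-412-3p. Likewise miR-370-5p averaged 28.3 CPM beside 1.6 of miR-1193-3p, and miR-672-5p 27.5 beside 0.8 of miR-377-5p.

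The cluster's hairpins were placed on the genome with the same assembly. From the start of Mir379 to the end of Mir3072 they span 38.9 kb (GRCm38, chr12:109709060-109747960), on the plus strand except Mir299b. GENCODE M21 annotates the noncoding gene Mirg only from chr12:109729764-109749460. Of the 35 hairpin names, 13 with 26 members lie inside Mirg, from Mir382 to Mir3072. The other 22, with 41 members, lie before its annotated start, and 21 of them have no annotated host gene. For miR-544 the positions of its mature arms were used, and a host gene was not looked up. The name "Mirg part" therefore covers 14.2% of the cluster's summed CPM, and 85.8% came from hairpins before the annotated transcript.

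Hairpins that carry the most reads, or that matter for the comparison below, are given in full to show how close their arms lie; both mature arms are in capitals.
Mir300: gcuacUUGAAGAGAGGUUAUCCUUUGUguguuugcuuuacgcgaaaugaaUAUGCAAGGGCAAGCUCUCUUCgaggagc
Mir381: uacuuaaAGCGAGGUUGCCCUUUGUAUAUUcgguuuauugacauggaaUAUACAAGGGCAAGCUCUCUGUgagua
Mir329: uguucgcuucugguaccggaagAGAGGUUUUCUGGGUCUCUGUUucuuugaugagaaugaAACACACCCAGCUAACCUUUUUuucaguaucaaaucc
Mir299a: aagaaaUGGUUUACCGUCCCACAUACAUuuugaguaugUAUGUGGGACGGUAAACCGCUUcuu
Mir299b: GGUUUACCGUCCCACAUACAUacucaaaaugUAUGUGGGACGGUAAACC
Mir300 (chr12:109724313-109724391) and Mir381 (chr12:109726822-109726896) start 2.51 kb apart. Mir329 lies at chr12:109713481-109713577. Mir299b (chr12:109710645-109710693, minus strand) is the antisense of Mir299a (chr12:109710638-109710700, plus strand), and both of its arms are contained in the arms of Mir299a.

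The libraries were deep enough for most of the cluster. Listed miRNAs drew 5220739 to 9260169 reads in a library, of which 203721 to 348601 belonged to the cluster. A floor of 3 reads stood at 0.222 to 0.390 CPM (reads scaled to a common library size), for counting error only, and 57 of the 67 members were above it in all 8 libraries. The tissue label was checked with miRNAs known from spinal cord (miR-9, miR-124, miR-10b, miR-219a and miR-338): all 11 of their listed arms were tested, and their sum was 178515 to 224989.7 CPM per library. The arms were uneven in level: miR-10b-5p averaged 110363 CPM, miR-219a-2-3p 1583 and miR-124-3p 937. miR-1a-3p, a miRNA of striated muscle, averaged 12471 CPM, so the sum says little about how pure the tissue was.

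The cluster's expression was concentrated in a few miRNAs. miR-300-3p averaged 6515 CPM over the 8 libraries, miR-381-3p 5834, miR-379-5p 5008, miR-411-5p 2812 and miR-541-5p 1608. These 5 were the only members above 1000 CPM, and the others fell off steeply: 16 members had 100 to 1000 CPM, 16 had 10 to 100, 16 had 1 to 10, and 14 were under 1. A CPM of a mature miRNA counts reads of a molecule of 18 to 25 bases, so no length correction applies between members, but differences in how well each sequence is captured were not measured here. In the plot of levels along the cluster, the high miRNAs were spread from the first hairpin to Mir541, 33.3 kb further on, and hairpins of under 10 CPM lay between them. miR-494-3p, for example, averaged 3.39 CPM, miR-539-5p 2.84 and miR-377-3p 1.27.

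**Figure D1:**
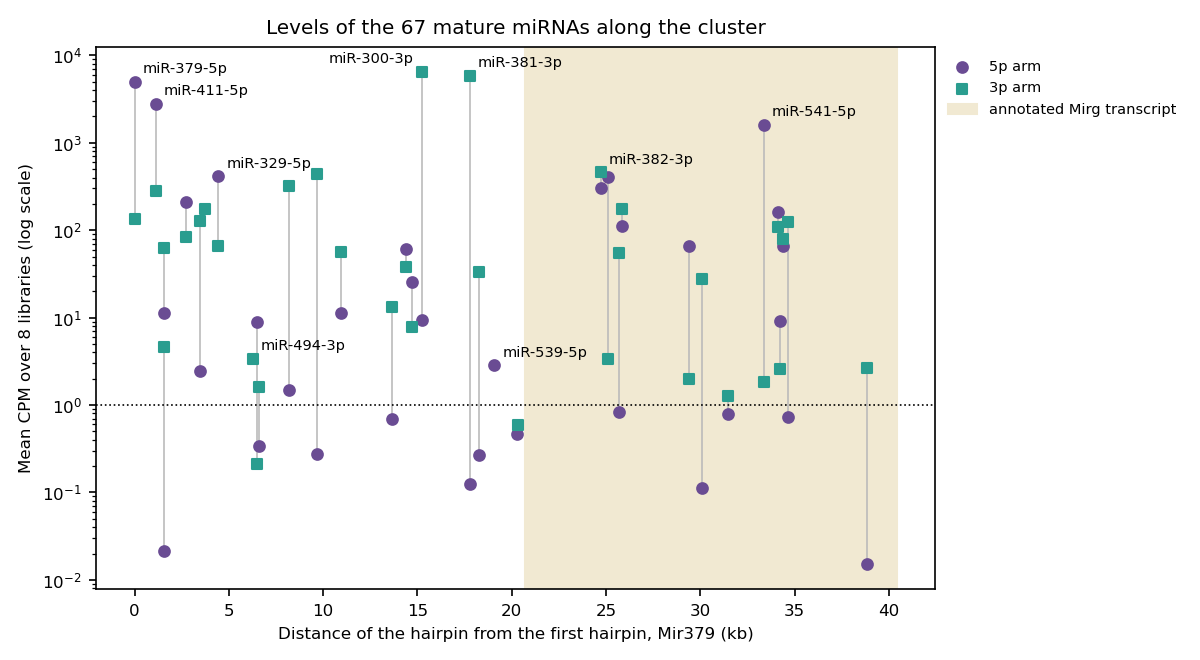
Mean CPM over the 8 libraries (log axis) of each of the 67 mature miRNAs against the distance of its hairpin from the start of Mir379 in kb; circles are 5p arms, squares are 3p arms, a line joins the arms of 1 hairpin, the dotted line marks 1 CPM and the shaded band is the annotated Mirg transcript. 4 of the 5 members above 1000 CPM lie before the band, and members of under 10 CPM are found both before it and within it.

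Some members with roles described in neurons were of intermediate abundance. miR-134-5p, which limits the size of dendritic spines in rodent hippocampal neurons by acting on Limk1, averaged 404 CPM. miR-329-5p averaged 417 CPM and its other arm, miR-329-3p, 66.8. miR-485-5p, known in rat hippocampal neurons as a regulator of the synaptic vesicle protein SV2A, averaged 110.3 CPM. The miR-376 hairpins, whose transcripts are known to be edited from adenosine to inosine in brain, gave 61.6 CPM for miR-376b-5p, 37.5 for miR-376b-3p, 25.3 for miR-376a-5p and 13.1 for miR-376c-3p.

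In each library the cluster took a small and steady share of the reads. The summed CPM of the 67 members was 25012, 25322, 28444 and 23900.4 in bone cancer pain 1 to 4. In sham 1 to 4 it was 26892, 25569, 27626 and 29749. The highest sum of the bone cancer pain group, in library 3, lay inside the sham range, so the groups overlapped. As a share of all reads, this was 2.39% to 2.84% in bone cancer pain and 2.56% to 2.97% in sham. The group means were 25669.7 ± 1948 CPM in the bone cancer pain libraries and 27459 ± 1748 in sham (SD, n = 4), and the difference between them was close to the size of the SDs.

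The comparison asks whether miRNAs of the cluster differ in the spinal cord of mice with bone cancer pain. No member did so beyond the error of these libraries. limma was run on log2(CPM + 1) over the 605 miRNAs whose mean reached 1 CPM, of which 53 were members; a fold change on this scale understates that of members near 1 CPM. With an adjusted p under 0.05, 0 of the 53 members were called, and 0% of all 605; the smallest adjusted p of a member by limma was 0.887. Two-sided tests by edgeR and DESeq2 on the recovered whole reads called 0 members too, with smallest adjusted p of 0.572 and 0.810.

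At an unadjusted p under 0.05, limma gave 0 members higher in bone cancer pain, against 2.81% of all tested miRNAs. It gave 2 members lower, miR-329-5p and miR-299b-3p, or 3.77% against 1.82% of all tested. The number of members at that level in either direction was 2 here. It was 1 when bone cancer pain 1 or 2 was left out, and 4 when bone cancer pain 3 or sham 2 was left out. With median-of-ratios scaling or quantile normalization it was 4. The number over all tested miRNAs moved too, from 28 of 605 here. It was 22 of 604 without bone cancer pain 1, 25 of 603 without bone cancer pain 2 and 42 of 604 without bone cancer pain 3. Without sham 2 it was 22 of 604, with median-of-ratios scaling 41 of 605 and with quantile normalization 35 of 605. edgeR gave 4 and DESeq2 3 members at that level in either direction, against 7.11% and 5.12% of all tested miRNAs. All 4 bone cancer pain libraries lay below all 4 sham libraries for 2 members, miR-299b-3p and miR-485-5p, against 1.65% of all tested, and for 0 members they lay above, against 1.98%. In either direction this made 2 members by p (4.63% of all tested) and 2 without overlap (3.64%). No share of the members was tested against the rest.

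The 95% intervals are those of log2(CPM + 1), which are narrower than those of CPM for low members, so they set no limit on the change in CPM of the 16 members of 1 to 10 CPM. On that scale, all 53 tested members had an interval within a 2-fold change in either direction, against 91.7% of all tested miRNAs. For 43 of the 53, or 81.1%, it lay within 1.5-fold, against 61% of all tested. Estimates ran from -0.43 for miR-299b-3p to 0.26 for miR-376a-3p on the log2 scale, bone cancer pain minus sham. Of the 53, 33 were below 0, or 62.3% against 51.7% of all tested, and the median was -0.07 against -0.01. Both medians moved with single libraries. Without sham 4 the members had 0.017 and all tested 0.054, without bone cancer pain 4 they had -0.015 and -0.019, and without bone cancer pain 3 they had -0.14 and -0.031.

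**Figure D2:**
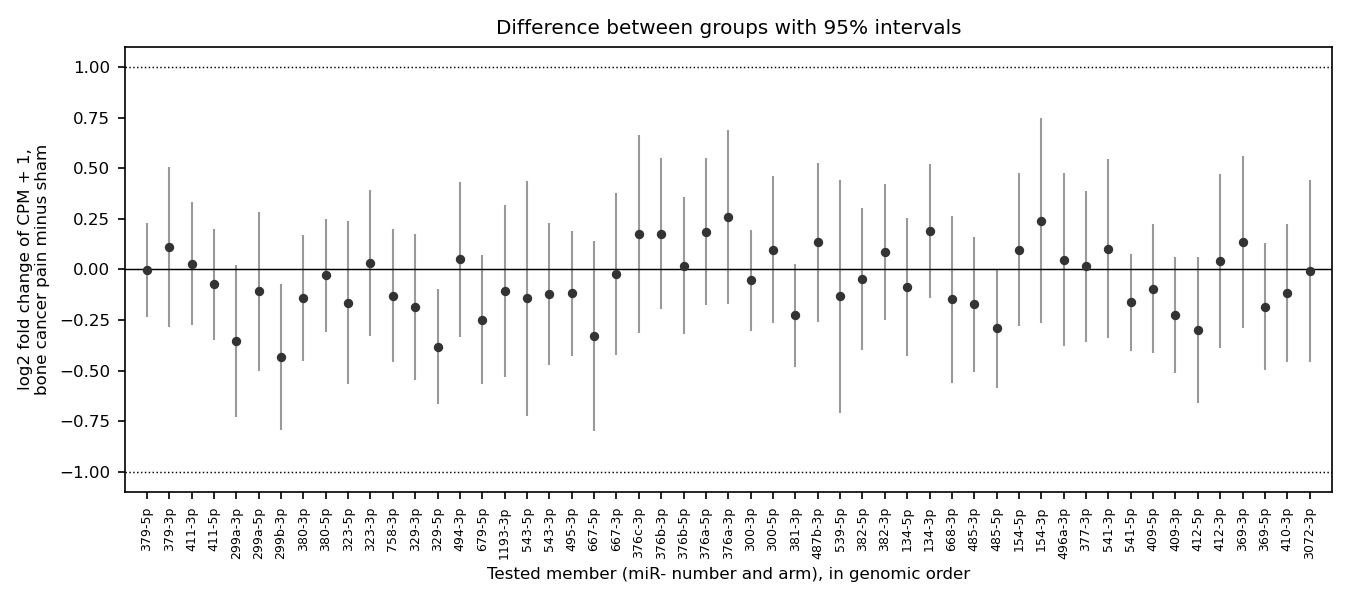
Log2 fold change of CPM + 1, bone cancer pain minus sham (n = 4 libraries each), for the 53 tested members in genomic order; points are limma estimates, lines their 95% intervals, and dotted lines mark a 2-fold change of CPM + 1. Estimates lie between -0.43 and 0.26, no interval reaches a 2-fold change on this scale, and only those of miR-299b-3p and miR-329-5p leave out 0.

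The 5 most abundant members showed overlapping groups. miR-300-3p had 6244, 6217, 7624 and 5551 CPM in bone cancer pain 1 to 4, and 6081, 6624, 6675 and 7106 in sham 1 to 4. The highest and the lowest of these 8 values were both in the bone cancer pain group. Means were 6409 ± 871 and 6622 ± 420.2 CPM (SD, n = 4), which gave a log2 difference of -0.05 (95% interval -0.31 to 0.20, limma adjusted p = 0.956). The estimate turned to 0.011 without bone cancer pain 4.

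miR-381-3p, its near copy, had 4783, 5441, 5472 and 5763 CPM in bone cancer pain 1 to 4. In sham 1 to 4 it had 6963, 5334, 6927 and 5991. Sham 2 lay among the bone cancer pain libraries and the other sham libraries above all of them. The log2 fold change was -0.23 (95% interval -0.48 to 0.03, limma adjusted p = 0.890). Since both sequences differ at 3 bases, their sum was taken as well: it averaged 11774 ± 918 CPM in the bone cancer pain libraries and 12925 ± 693 in sham, with bone cancer pain 3 (13096) inside the sham range of 11958 to 13603. The ratio of miR-300-3p to miR-381-3p ran from 0.963 to 1.39 in bone cancer pain and from 0.873 to 1.24 in sham, so neither was always the more abundant of the pair.

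miR-379-5p, the first miRNA of the cluster, had 5409, 4978, 5163 and 4454 CPM in the bone cancer pain libraries and 4754, 4686, 4970.2 and 5652 in sham libraries. Its group means were nearly equal, 5001 ± 405 and 5015 ± 441 CPM, with a 95% interval of the log2 fold change from -0.24 to 0.23. The sign of so small an estimate was set by single libraries and by the scaling: -0.0039 became 0.051 without bone cancer pain 4, 0.055 without sham 4 and 0.011 with median-of-ratios scaling.

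miR-411-5p had 2764, 2621, 3069 and 2483 CPM in the bone cancer pain libraries and 2624, 2841, 2602 and 3494 in sham libraries. Sham 4 was the highest, and the other 7 libraries were mixed. The log2 fold change was -0.07 (95% interval -0.35 to 0.20), and 0.021 without sham 4. miR-541-5p had 1398, 1507.5, 1636 and 1526 CPM in the bone cancer pain libraries and 1687, 1569, 1610.1 and 1934 in sham libraries (log2 fold change -0.16, 95% interval -0.40 to 0.08). Only bone cancer pain 3 lay inside the sham range for miR-541-5p.

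miR-329-5p was the member with the smallest unadjusted p. It had 422, 368 and 322 CPM in bone cancer pain 2 to 4, a value between those of libraries 3 and 4 in bone cancer pain 1 (2753 reads), and 478, 410.99, 524 and 474 CPM in sham 1 to 4. Bone cancer pain 2 lay above sham 2, and the other bone cancer pain libraries lay below every sham library. Means were 362 ± 44.1 and 472 ± 46.3 CPM (SD, n = 4). The log2 difference was -0.38 (95% interval -0.67 to -0.10) with an unadjusted p of 0.0134 and an adjusted p of 0.887 by limma. Leaving out any 1 library kept the estimate between -0.46 and -0.33. The other arm of the hairpin, miR-329-3p, averaged 62.5 ± 10.5 against 71.1 ± 11.1 CPM (log2 fold change -0.19, 95% interval -0.55 to 0.18). Leaving out sham 4 gave -0.083 and leaving out bone cancer pain 3 gave -0.28.

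The Mir299 pair gave the other low values. miR-299b-3p had 3.56, 3.21, 4.51 and 3.90 CPM in the bone cancer pain libraries and 5.31, 4.82, 4.91 and 6.89 in sham libraries. The groups did not overlap, though bone cancer pain 3 and sham 2 were close. Its log2 fold change was -0.43 (95% interval -0.79 to -0.07, limma unadjusted p = 0.0235, adjusted p = 0.887), and -0.33 without sham 4. miR-299a-3p, which holds the same 18 bases, had 51.9, 56.8, 59.8 and 47.4 CPM in the bone cancer pain libraries and 62.5, 67.1, 57.6 and 93.5 in sham libraries (log2 fold change -0.35, 95% interval -0.73 to 0.02). Here the groups overlapped, and sham 4 stood above the other 3 sham libraries; without it the estimate was -0.21. miR-299b-3p amounted to 5.65% to 8.52% of miR-299a-3p in every library, and short reads cannot separate both names.

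miR-485-5p had 101, 106, 105 and 84.4 CPM in the bone cancer pain libraries and 114, 113, 119.7 and 139 in sham libraries. All 4 bone cancer pain libraries were lower, with a gap between bone cancer pain 2 and sham 2 that was smaller than either SD. Means were 99.2 ± 10.1 and 121 ± 12.2 CPM (log2 fold change -0.29, 95% interval -0.58 to 0.0041, limma adjusted p = 0.887). Its other arm, miR-485-3p, averaged 166 ± 27.4 against 187 ± 25.7 CPM, with overlapping groups. miR-412-5p, the sixth of the lower members with the smallest p, averaged 8.19 ± 1.08 against 10.3 ± 1.604 CPM (log2 fold change -0.30, 95% interval -0.66 to 0.06).

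**Figure D3:**
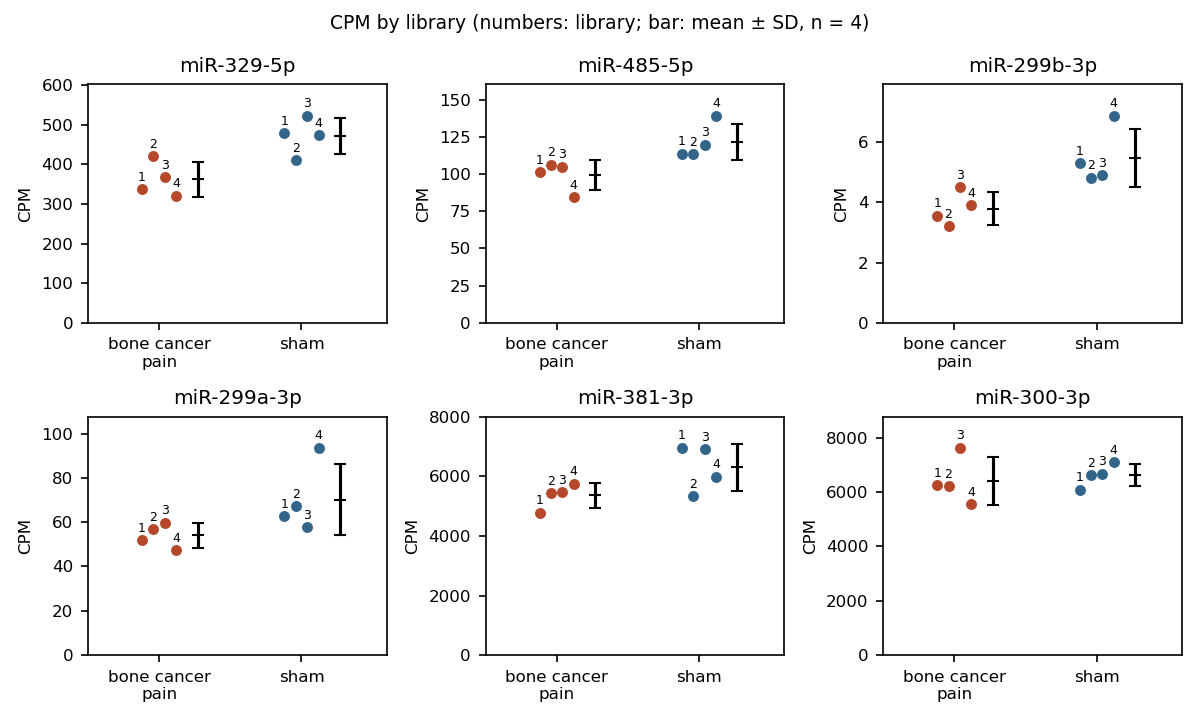
CPM of 6 members in each library (numbered 1 to 4 within its group), with the mean and SD of each group (n = 4) as bars; each axis starts at 0. The groups are separate for miR-299b-3p and miR-485-5p, share 1 crossing pair of libraries for miR-329-5p, and overlap for miR-299a-3p, miR-381-3p and miR-300-3p.

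Among members with a higher mean in bone cancer pain, the 6 with the smallest p included 4 arms of the miR-376 hairpins. miR-376a-3p had 9.45, 7.49, 9.83 and 7.44 CPM in the bone cancer pain libraries and 5.10, 8.0, 6.02 and 9.24 in sham libraries (log2 fold change 0.26, 95% interval -0.17 to 0.69). Its groups overlapped, with sham 2 and sham 4 above 2 of the bone cancer pain libraries, and the estimate was 0.13 without sham 1. miR-376a-5p averaged 26.9 ± 4.07 against 23.6 ± 3.62 CPM, miR-376b-3p 40.1 ± 9.16 against 34.9 ± 3.23, and miR-376c-3p 13.9 ± 3.61 against 12.3 ± 3.23. For these 3, bone cancer pain 3 was the highest of the 8 libraries, with 33.0, 53.8 and 19.1 CPM. Without it the log2 fold changes were 0.088, 0.031 and 0.024. The summed arms of the miR-376 hairpins averaged 152 ± 25.1 CPM in the bone cancer pain libraries and 139.6 ± 16.2 in sham, a difference smaller than either SD.

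The other higher members were miR-134-3p, with 3.70 ± 0.518 against 3.10 ± 0.338 CPM (log2 fold change 0.19), and miR-154-3p, with 2.26 ± 0.799 against 1.75 ± 0.611 (0.24, and 0.077 without sham 4). Both are minor arms, and their partners did not differ beyond error either. miR-134-5p averaged 391 ± 59.8 against 416 ± 69.5 CPM (log2 fold change -0.09, and 0.020 without sham 4), and miR-154-5p 67.4 ± 9.25 against 63.5 ± 13.8 (0.10, but 0.0072 without bone cancer pain 3 and 0.23 without sham 4). miR-495-3p, whose seed AACAAAC is its own within the cluster, averaged 421 ± 55.0 against 458 ± 63.8 CPM (log2 fold change -0.12, but -0.032 without sham 4 and -0.20 if bone cancer pain 3 was left out). miR-382-3p averaged 478 ± 69.5 against 450.8 ± 70.1 CPM (log2 fold change 0.08, and -0.0060 without sham 2).

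The pattern that set libraries apart was shared by most members and ran across both groups. Of the 53 tested members, 24 had their highest value in sham 4, or 45.3%, near the 41.5% of all 605 tested miRNAs. In bone cancer pain 3 it was 23 members, or 43.4% against 18.7% of all tested. Those 2 libraries together held the maximum of 88.7% of the tested members, against 60.2% of all tested miRNAs. No member had its maximum in bone cancer pain 1, 2 or 4, against 24.1% of all tested miRNAs. Bone cancer pain 4 held the minimum of 20 members, or 37.7% against 16.7% of all tested. In the plot of deviations by library, the median member stood 0.24 above its mean over 8 libraries in bone cancer pain 3 on the log2 scale, where the median of all tested miRNAs stood 0.07 above. In sham 4 the members' median was 0.20 and that of all tested 0.21. In bone cancer pain 4 they were -0.15 and 0.0095. Members measured in the same library share that source and are no replicates of each other, so these shares are a description.

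**Figure D4:**
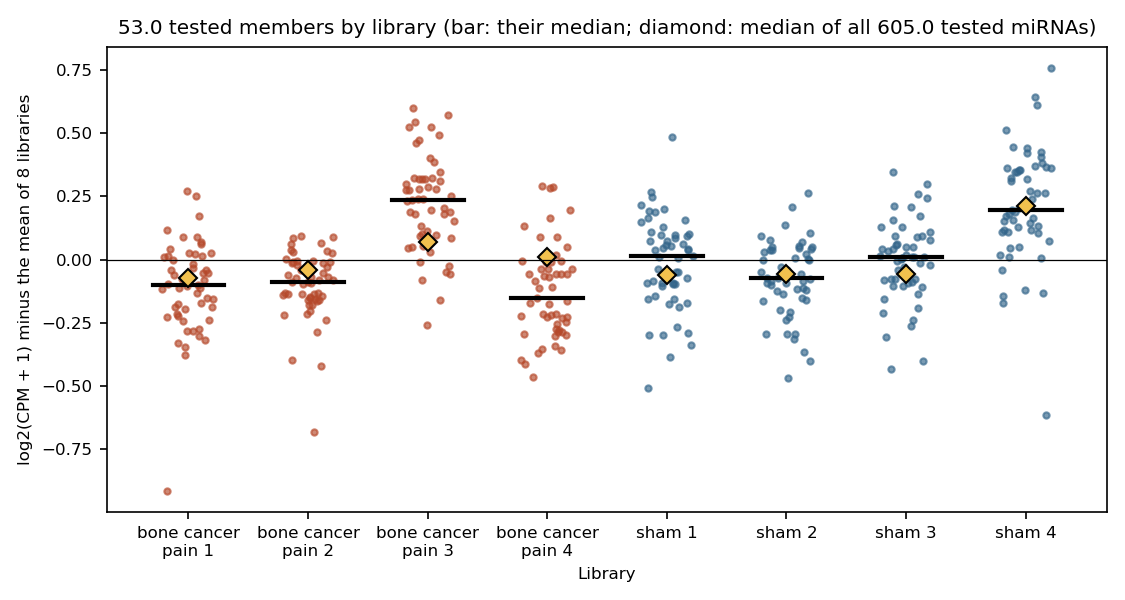
Deviation of log2(CPM + 1) from its mean over the 8 libraries for each of the 53 tested members, by library; each point is 1 member, the bar is their median and the diamond the median of all 605 tested miRNAs. Bone cancer pain 3 and sham 4 stand highest, with medians of 0.24 and 0.20, and bone cancer pain 4 lowest, with -0.15.

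Other miRNA sums moved with the cluster from library to library. The 4 libraries with the highest member sums were bone cancer pain 3 and sham 1, 3 and 4, and the same 4 had the highest sums of the other Dlk1-Dio3 miRNAs and of miRNAs enriched in neurons (among them miR-124, miR-128 and miR-137). Bone cancer pain 4 was the lowest in all of these sums. The neuron-enriched sum, with 21 of 22 listed arms tested and none at 0 in all libraries, was 23927 to 30838 CPM in the bone cancer pain libraries and 24275 to 30279 in sham. Its arms were uneven in level: miR-128-3p averaged 14743 CPM, miR-218-5p 5961, miR-124-3p 937 and miR-137-3p 49.9. Of the 21 tested arms, 10 had a log2 fold change above 0 and 11 below. The part of this sum in the differences between libraries was not tested, and in bulk tissue fewer neurons and less miRNA per neuron cannot be told apart.

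Markers of striated muscle varied more than the cluster did. Striated muscle miRNAs (such as miR-1a and miR-133a), of which 7 of 14 were tested and none was at 0 in all libraries, summed to 6068 to 16949.9 CPM in the bone cancer pain libraries and 5379.5 to 29313 in sham, highest in sham 1, sham 2 and bone cancer pain 4. Without those 3 libraries, the median log2 fold change of the members was -0.09, against -0.078 over all tested miRNAs, and limma called 0 members. Without bone cancer pain 3 and sham 4 the members' median was also -0.09, but that of all tested miRNAs was 0.022, with 0 called. Vascular miRNAs (such as miR-126a and miR-143), with 6 of 7 tested, summed to 23461 to 35667 CPM in the bone cancer pain libraries and 16951 to 29488 in sham. Leukocyte miRNAs (miR-142a, miR-223 and miR-150), with 6 of 6 tested, summed to 318.0 to 373 and 288 to 316 CPM. Both lists had no marker at 0 in all libraries. The leukocyte sums of the groups did not overlap, with a highest sham sum of 315.74 CPM, and miR-150-5p alone averaged 203 CPM. Bone cancer pain 3 and sham 4, each with the highest cluster sum of its group, had the lowest vascular sums of their groups. Erythroid miRNAs (such as miR-451a), with 6 of 7 tested, summed to 2171 to 3631 CPM in the bone cancer pain libraries and 1056 to 4786 in sham, and were likewise lowest in these 2 libraries. Oligodendrocyte miRNAs (miR-219a and miR-338), with 5 of 5 tested, summed to 2442 to 2601 and 2064 to 3978 CPM, highest in sham 4. None of their markers was at 0 in all libraries. By direction, 0 striated muscle arms had a log2 fold change above 0 and 7 below (median -0.94), where 51.7% of all tested miRNAs were below. Vascular arms had 6 above and 0 below (median 0.27). Leukocyte and erythroid arms each had 5 above and 1 below, and oligodendrocyte arms 2 and 3. At an unadjusted p under 0.05, limma gave 2 vascular arms and 1 leukocyte arm, against 4.63% of all tested, and 0 were called in each list. The part of these markers in the values of the cluster was not tested.

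The rest of the Dlk1-Dio3 domain was compared as the nearest neighbour of the cluster. It has 35 listed miRNAs, 26 of them tested, and is dominated by miR-127-3p, which lies antisense to the imprinted gene Rtl1 and averaged 41297 ± 3739 CPM in the bone cancer pain libraries and 44439 ± 2409 in sham. In limma's fit 0 of the 26 were called, 9 were above 0 and 17 below, where 51.7% of all tested miRNAs were below. Their median log2 fold change was -0.09, against -0.01 over all tested. At an unadjusted p under 0.05 limma gave 1 of the 26, miR-341-3p (log2 fold change -0.41), against 4.63% of all tested. The groups did not overlap for 2 of the 26, miR-341-3p and miR-431-3p (-0.28), both lower, against 3.64% in either direction. Within the cluster, the 32 tested members before the annotated start of Mirg had a median of -0.09, and the 21 within Mirg of -0.05, with 0 called in each.

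The choice of arm varied from hairpin to hairpin. In 31 member hairpins both arms were listed and at least 1 arm reached 1 CPM; the 3p arm was the more abundant in 19 of them and the 5p arm in 12. This is 61.3% with a dominant 3p arm, against 51.0% of the 298 hairpins of the whole table. In 17 of the 31 the major arm exceeded the other by at least 10-fold, or 54.8%, against 63.4% of all. miR-300 was among the most one-sided hairpins, with 689.5-fold more 3p than 5p, and miR-541 had 880.1-fold more 5p than 3p. miR-381 and miR-495 were more one-sided, with 46213-fold and 1606-fold more 3p, but their 5p arms averaged only 0.126 and 0.274 CPM. At the other end, miR-369 had 1.19-fold, miR-409 1.48-fold and miR-382 1.53-fold more of its major arm.

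The ratio of both arms within a library depends on the library scaling only through the pseudocount of 1 CPM added to each arm. This pseudocount can make a difference look smaller where 1 arm is low. The minor arms of miR-134, miR-412 and miR-541, for example, averaged 3.4, 2.6 and 1.8 CPM. The ratio was tested with limma in the 19 member hairpins with both arms at 1 CPM or more, among 161 such hairpins. With an adjusted p under 0.05, 0 of the 19 were called and 0% of the 161, and at an unadjusted p under 0.05 by limma also 0 of the 19, against 8.7%. The smallest adjusted p of a member hairpin was 0.506 by limma, for miR-369. The 5p arm made up 48.4%, 46.1%, 38.8% and 39.6% of miR-369 in bone cancer pain and 48.1%, 49.7%, 51.9% and 45.4% in sham libraries. Bone cancer pain 3 and 4 were low and the other 6 libraries were mixed. The difference of the log2 ratio was -0.32 (95% interval -0.66 to 0.02).

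Arm shares of the most abundant hairpins moved little in percent of both arms, a scale that compresses changes near 0 and 100. The 5p arm was 96.9% to 97.9% of miR-379 over all 8 libraries, 89.7% to 91.7% of miR-411, 99.8% to 99.9% of miR-541 and 0.123% to 0.156% of miR-300. On that scale miR-382 varied most among the abundant ones, from 33.2% in sham 1 to 49.3% in sham 4. Its difference of the log2 ratio was -0.13, or 0.041 without sham 4. miR-134 (-0.28), miR-412 (-0.34) and miR-667 (-0.31) had intervals that crossed 0. Without bone cancer pain 4 the first 2 were -0.18 and -0.19, and miR-667 was -0.18 without bone cancer pain 3. For 1 hairpin, miR-380, chosen after its values were seen, the groups did not overlap, against 4.97% of all 161: its 5p share was 71.7% to 73.1% in bone cancer pain and 69.6% to 71.5% in sham.

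**Figure D5:**
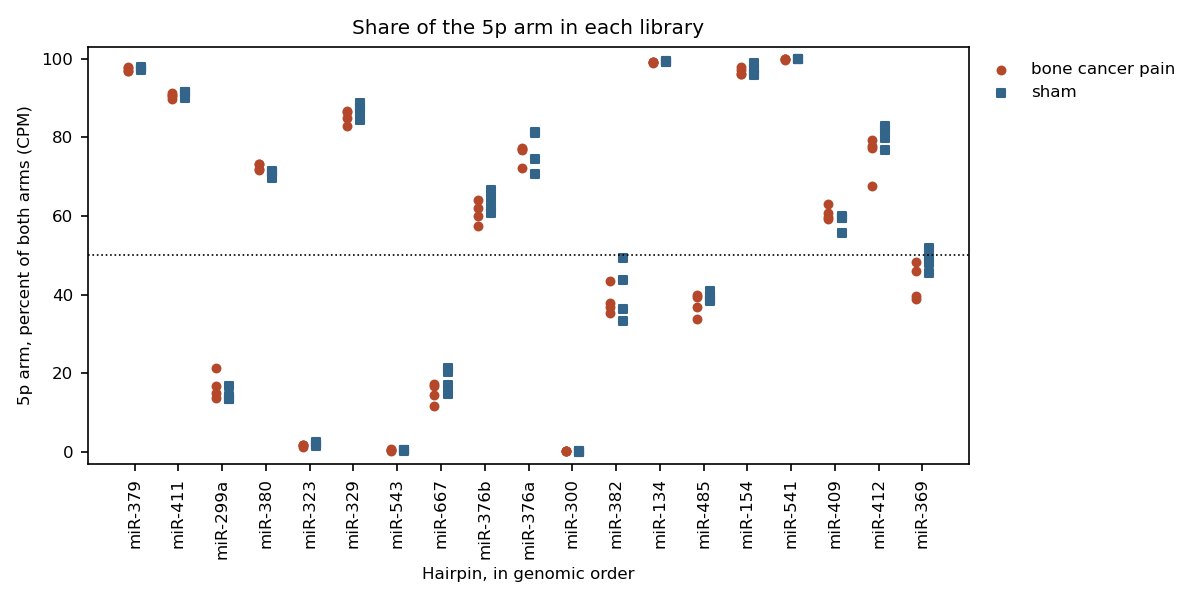
Share of the 5p arm in the CPM of both arms (percent) for the 19 member hairpins with both arms at 1 CPM or more, in genomic order; each point is 1 library, 4 per group, and the dotted line marks equal arms. Shares run from near 0 for miR-300 to near 100 for miR-541, and the groups overlap for every hairpin shown except miR-380.

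The median spread between replicates was larger for members of lower level. The median coefficient of variation within groups was 12.9% for the 21 members of at least 100 CPM and 14.8% for the 163 other miRNAs at that level. It was 18.8% for the 16 members of 10 to 100 CPM and 24.3% for the 16 of 1 to 10 CPM. The 14 members under 1 CPM were not tested; they are both arms of miR-544 and the minor arms of hairpins such as miR-381, whose 5p arm averaged 0.126 CPM beside 5834 of its 3p arm.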

How the data were processed

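Per the labels' protocols, TRIzol extraction was followed by rRNA removal, fragmentation and cDNA kits, although small RNA is named in the descriptions; how small RNA was selected is not given in the sources used here. Per the submitters' processing notes, fastp, STAR, Bowtie, Salmon and the build mm10 were used, without stated roles. Values of 1396 miRNAs were deposited by the authors in CPM, scaled to library totals of 7686762 to 13498956 reads, as the steps between low values show: at least 99.8% of values above 0 were whole reads within 0.0051 CPM. Columns that could not be mapped to a sample numbered 0.

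miRNAs averaging 1 CPM or more (605 tested, 791 not) were compared on log2(CPM + 1), a pseudocount of 1 CPM, with limma 3.58.1 in R 4.3.3 (two-sided, with a mean-variance trend; Benjamini-Hochberg over all tested, threshold 0.05). The recovered reads were also fitted with edgeR 4.0.16 and DESeq2 1.42.0, and the procedure was tested on simulated data. Arm ratios were fitted the same way, over 161 hairpins. The members, lists and tests were chosen with earlier results of these data known. Every member may be named with its level; fold changes are given for the 8 most abundant, for those with the smallest unadjusted p (6 higher, 6 lower), and the other tested arms of these, which made 30. Arm ratios are given for the 5 most abundant tested hairpins and the 4 with the smallest unadjusted p. Positions and sequences come from RefSeq (GRCm38.p6) and GENCODE M21, matched by name.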

Additional observations from a re-analysis of the deposited data

Results flagged for a closer look

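Within groups of 4 libraries, a value was looked at again when its gap to the nearest other library exceeded the share of the group's range that Dixon's 95% critical value allows. Chance gives about 1 such group in 20, and 6 of the 80 groups checked had one. Bone cancer pain 3 stood above the rest of its group for miR-376a-5p (33.0 CPM), miR-376b-3p (53.76 CPM), miR-411-3p (352.25 CPM) and miR-154-5p (81.14 CPM). Sham 4 stood above its group for miR-329-3p (87.68 CPM). In bone cancer pain 4 the 5p arm of miR-134 made up 98.8488% of both arms, the lowest share of its group.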

How the results depend on the processing

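In each setting run, 0 members and 0 of all tested miRNAs were called, by limma, edgeR or DESeq2. Arm ratios were fitted with limma alone, under another pseudocount, filter and trend, the block and left-out libraries, and 0 of the members' were called; leaving out 1 library kept the difference in the members' share between -0.27 and -0.10 percentage points. The members' median ran from -0.14 to 0.017 without 1 library. Deviations from the group means did not correlate positively between same-numbered libraries (correlations -0.055, -0.056, -0.011 and -0.31). With 4 libraries per group, these values do not settle whether the numbers pair libraries. With the replicate block, 0 members were called, the members' median stayed at -0.07, and 1 of 161 arm ratios, not a member's, was called. Signs of small estimates turned, and the cause was not tested. Quantile normalization gave miR-300-3p 0.010. miR-379-5p was 0.011 with median-of-ratios scaling, 0.016 with edgeR and 0.017 with DESeq2. Without 1 library, the range was -0.14 to 0.011 for miR-300-3p, -0.043 to 0.055 for miR-379-5p, -0.13 to 0.021 for miR-411-5p, -0.0060 to 0.17 for miR-382-3p, -0.074 to 0.090 for miR-411-3p (negative without bone cancer pain 3 or sham 1), -0.080 to 0.23 for miR-541-3p (negative without bone cancer pain 3), -0.12 to 0.096 for miR-382-5p (positive without bone cancer pain 2 or sham 4), -0.18 to 0.020 for miR-134-5p, -0.076 to 0.10 for miR-376b-5p (negative without bone cancer pain 3 or sham 2), -0.084 to 0.18 for miR-412-3p (negative without bone cancer pain 4 or sham 2) and -0.28 to 0.041 for the arm ratio of miR-382. Both remaining settings were chosen after seeing the data. Without bone cancer pain 3 and sham 4, values were 0.038 for miR-379-5p, -0.027 for miR-382-3p, -0.058 for miR-154-3p, -0.012 for miR-411-3p, -0.10 for miR-541-3p, 0.026 for miR-382-5p, -0.015 for miR-376b-5p and 0.053 for the arm ratio of miR-382. Without bone cancer pain 4, sham 1 and sham 2, they were -0.070 for miR-376c-3p, -0.085 for miR-379-3p, -0.037 for miR-411-3p, -0.11 for miR-376b-5p, -0.22 for miR-412-3p and 0.052 for the arm ratio of miR-379. Depth limits the 10 members that were at or under 3 reads in at least 1 library.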
